A study of Arabidopsis thaliana with 19 samples.

Results

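The genes described here are 63 of the 21021 genes in the authors' deposited table of averaged array signals, chosen because their signal was highest in cells sorted with a KAN1 reporter. A gene was taken where the averaged signal in KAN1 was at least 200 and at least 2 times that of the highest other reporter, and where it was called present on all KAN1 arrays. The choice therefore used the signal in KAN1 against the other reporters, and those values are given as a description with no test. Cells came from shoot apices of Arabidopsis thaliana carrying ap1-1 and cal1-1, grown for 28 days. All 7 groups share this genotype and age. The ap1-1 cal1-1 double mutant keeps forming meristems where flowers would stand. Apices were turned into protoplasts, fluorescent cells were sorted, and RNA was amplified in 2 rounds before hybridisation to Affymetrix ATH1 arrays. The groups are KAN1, labelled organ circumference (n = 3 arrays), AtML1 and HMG, both labelled epidermal (n = 2 and 3), HDG4, labelled subepidermal (n = 3), LAS, labelled adaxial (n = 2), AtHB8, labelled xylem and stem (n = 3), and S17, labelled phloem (n = 3). Each population is defined by the promoter that drives its reporter, and there is no unsorted sample. Whether the arrays of a group stem from separate plants is not stated in the labels, and the p-values below rest on the spread among arrays alone, which may be technical. In such bulk samples, fewer cells of a type and less RNA per cell cannot be told apart.

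KANADI proteins, of which KAN1 is one, are GARP transcription factors that promote abaxial identity, the identity of the lower side of a leaf and of the outer side of a young organ. They act against the class III HD-ZIP factors of the adaxial side and the organ centre. Cells at the circumference of a young organ expand, loosen their walls and, in the outermost layer, lay down a cuticle, while their plastids begin to turn into chloroplasts.

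Signals are linear MAS5 values per probe set, scaled by the authors so that every array has the same trimmed mean of 500. The tests compare each probe set with itself across arrays. Levels of different probe sets are set side by side in the filter on low signals, the sums over lists and the choice of genes to name. Array medians lay between 152 and 183. The ratio of the 3′ to the 5′ probe set of an actin control, a measure of RNA integrity and amplification, was 5.50 ± 0.918 on the KAN1 arrays (SD, n = 3) and 11.8 ± 3.58 on the other arrays (n = 16), a difference of -6.30 (exact two-sided permutation test over 969 splits, p = 0.0114). The KAN1 arrays ran between 4.44 and 6.08 and the others between 7.31 and 19.7, without overlap. The test exchanged single arrays, whereas the arrays come in 7 reporter groups, so its p-value does not measure the spread among reporters. This actin ratio moved with the contrast that chose the genes, and its part in their signals was not tested. The KAN1 gene itself was dim, with signals of 107, 64.6 and 137 in KAN1 and between 1.90 and 110.1 on the other 16 arrays, and it was called present on 2 of the 3 KAN1 arrays. It was not tested, since it did not pass the filter on low signals, so it does not check the label.

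In 61 of the 63 genes every KAN1 array lay above all 16 other arrays, which holds for 1.84% of all probe sets and follows largely from the rule. The exceptions were AT2G21180, whose lowest KAN1 signal was 0.856 times the highest of the others, and OEP6, at 0.932 times. The ratio of KAN1 to the next reporter, as the authors' averages give it, ran between 2.03 and 20.5 with a median of 2.70. Over the KAN1 arrays the coefficient of variation of the 63 genes had a median of 15.3%, against 11.2% over the 10230 genes called present on all KAN1 arrays at an averaged signal of at least 200. It was highest for GER3, at 53.6%, and OEP6, at 52.5%. KAN1 array 1 was the highest of the 3 in 21 genes, array 2 in 22 and array 3 in 20, while array 2 was the lowest in 31.

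Just inside the threshold lay G-TMT at a ratio of 2.03, AT2G21180 and AT1G22490 at 2.04, AT5G51110 at 2.05 and OEP6 at 2.07. Just outside lay RUP1 at 1.99, SCPL27 and ABCB19 at 1.98, and HMGB2 and NF-YA10 at 1.97. A further 9 genes met the ratio and the calls with an averaged KAN1 signal between 100 and 200.

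**Figure D1:**
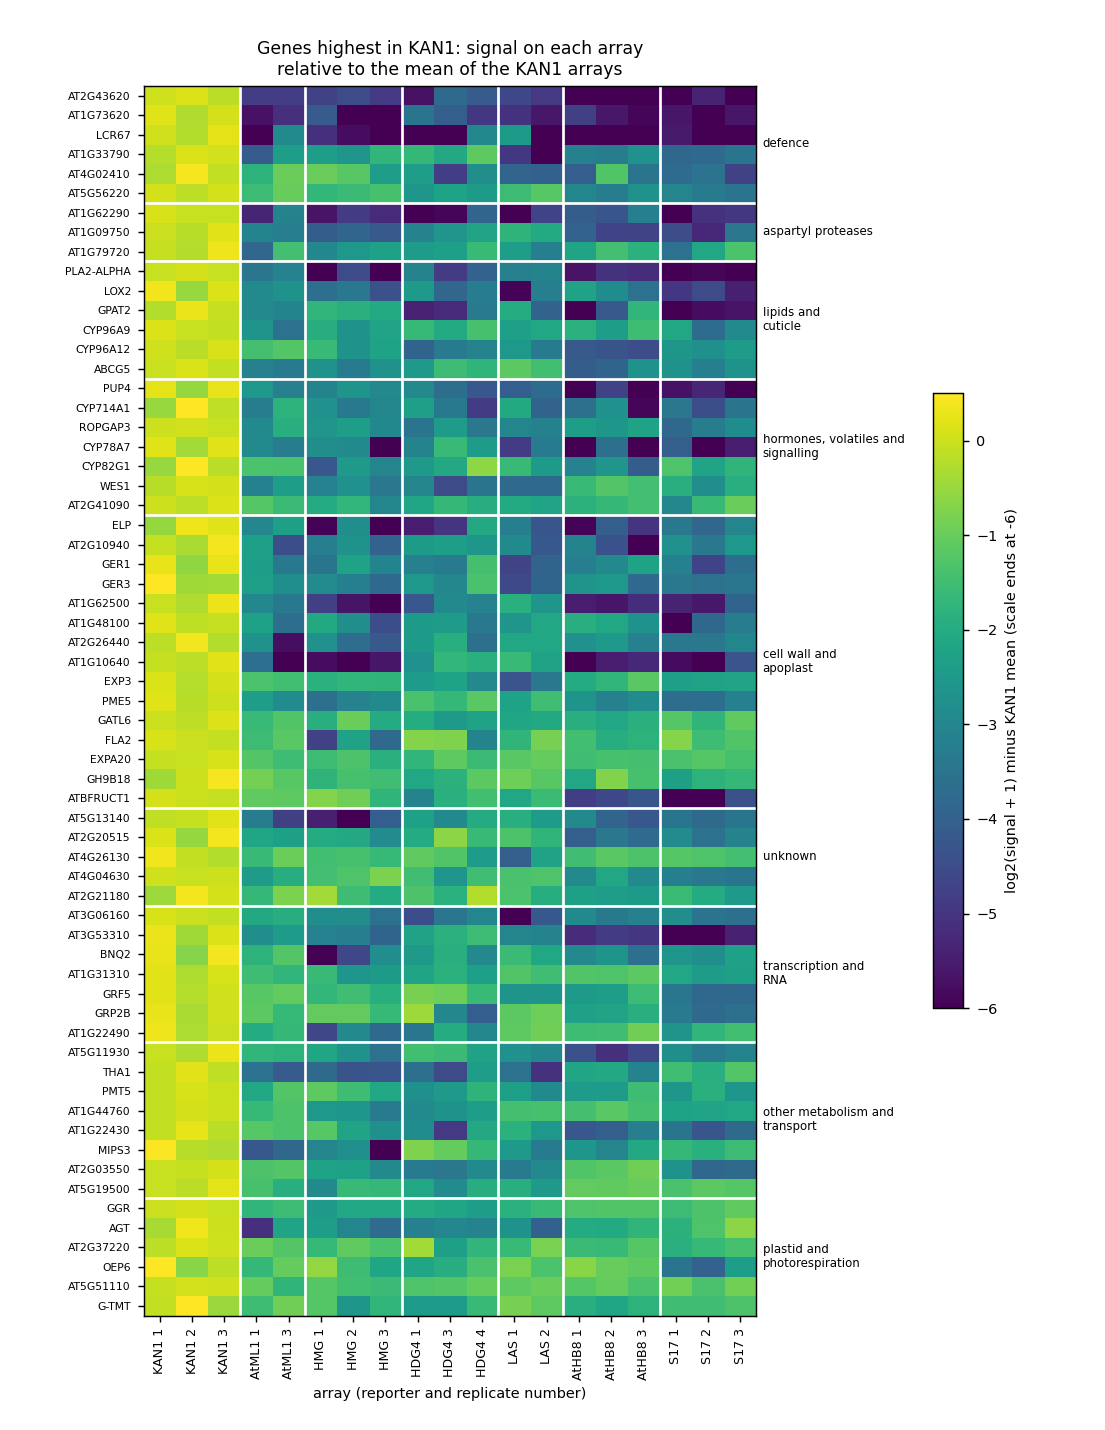
Signals of the 63 genes (rows, grouped by known role) on the 19 arrays (columns, by reporter and replicate number), as log2(signal + 1) minus the mean of the 3 KAN1 arrays, with the colour scale ending at -6. The KAN1 columns are bright by the choice of genes, and the other 16 columns differ from gene to gene.

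By known role, 15 genes act in the cell wall or apoplast, 8 in other metabolism and transport, 7 in hormone metabolism, volatiles or signalling, 7 in transcription or RNA binding, 6 in defence, 6 in lipid metabolism or cuticle, 6 in plastids or photorespiration, 3 encode aspartyl proteases and 5 are of unknown function. The grouping was made by hand from annotation, after the values had been seen. Where a gene was called absent on every array of the nearest reporter, the ratio is only a bound, written "at least". For such a bound each dim array counts with its own signal or with the array's lowest signal called present, whichever is higher.

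The defence group had a median ratio of 6.88 and held the gene with the highest ratio of all. AT2G43620, of the chitinase family, whose members cut the chitin of fungal walls, had signals of 2210.0, 2412 and 1927 in KAN1, against a lowest of 8.08, a median of 72.0 and a highest of 157 on the other 16 arrays. Its KAN1 average was 20.5 times that of HDG4, the next reporter, and it was called absent on all arrays of AtML1, AtHB8 and S17 and present on 2 of 3 arrays in HMG and in HDG4. AT1G73620, a thaumatin-like protein of the pathogenesis-related type, had 252, 181 and 234 in KAN1, against a lowest of 2.21, a median of 3.65 and a highest of 18.6. All 16 other arrays called it absent, and KAN1 was at least 9.16-fold higher than AtML1, the nearest by this bound.

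LCR67, a plant defensin, which is a small secreted antifungal peptide, had 442, 361 and 506 in KAN1, against a lowest of 1.06, a median of 3.73 and a highest of 77.9. It too was absent on all 16 other arrays. The KAN1 average was 10.8 times that of LAS, and on geometric means KAN1 was at least 10.9-fold higher than AtML1, the nearest by the bound. AT1G33790, a jacalin-type lectin that binds sugars, had 2149, 2752 and 2608 in KAN1, against a lowest of 3.004, a median of 328 and a highest of 1144, 2.98 times HDG4. AT5G56220, a nucleotide-binding protein, had 1656, 1419.7 and 1653 in KAN1, against a lowest of 139, a median of 311 and a highest of 784, and was present on every array. The remaining member, the lectin receptor kinase AT4G02410, averaged 319.8 ± 83.1 in KAN1 (SD, n = 3), 2.55 times AtML1.

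The aspartyl proteases are secreted or vacuolar enzymes that cut proteins. AT1G62290 had signals of 1537, 1375 and 1369 in KAN1, against a lowest of 6.12, a median of 43.3 and a highest of 167. It was called present on 1 of the other 16 arrays, in AtHB8, and KAN1 was 13.7 times that reporter. AT1G09750 had 1716, 1528 and 2030.0 in KAN1, against a lowest of 43.9, a median of 140.1 and a highest of 515, and was present on every array, with LAS next at a ratio of 3.74. AT1G79720 had 292, 257 and 387 in KAN1, against a lowest of 20.3, a median of 61.1 and a highest of 121, 3.56 times AtHB8.

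Among the lipid and cuticle genes, PLA2-ALPHA, a secretory phospholipase A2 that frees a fatty acid from phospholipids, had 390.0, 423 and 386 in KAN1, against a lowest of 2.82, a median of 11.8 and a highest of 46.1. It was absent on all other arrays, and KAN1 was at least 8.78-fold higher than LAS. LOX2, the chloroplast lipoxygenase of jasmonate synthesis, had 608, 334 and 527 in KAN1, against a lowest of 6.70, a median of 41.9 and a highest of 98.9, 7.17 times AtML1.

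LOX2 is also a wound-responsive gene, and the part of protoplasting in its signal was not tested. CYP96A12 and CYP96A9 belong to the cytochrome P450 family that holds the wax alkane hydroxylase. CYP96A12 had 1396, 1212 and 1471 in KAN1, against a lowest of 60.01, a median of 205 and a highest of 570.1, while CYP96A9 averaged 319 ± 32.5 in KAN1 and was 3.22 times HDG4.

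These paralogs lie on chromosome 4 with 2 protein-coding genes between them in the RefSeq annotation of TAIR10.1. ABCG5, a half-size ABC transporter of a family that exports lipids, had 406, 453 and 390.1 in KAN1, against a lowest of 23.6, a median of 64.0 and a highest of 188, 2.47 times LAS. GPAT2, a glycerol-3-phosphate acyltransferase, averaged 277 ± 57.6 in KAN1, 3.76 times HMG, and was called absent on every array of 4 reporters.

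The hormone, volatile and signalling group held WES1, a GH3 enzyme that joins auxin to amino acids. WES1 had 4530.2, 5585 and 5438 in KAN1, against a lowest of 229, a median of 688 and a highest of 2176, 2.70 times AtHB8. PUP4, a purine permease, had 1686, 980.3 and 1740.1 in KAN1, against a lowest of 2.07, a median of 96.1 and a highest of 246, 7.30 times AtML1, and was absent on all 6 arrays of AtHB8 and S17. ROPGAP3, which switches off the ROP GTPases of cell polarity, had 544, 562 and 523 in KAN1, against a lowest of 37.2, a median of 73.4 and a highest of 141, 5.11 times AtML1. The KAN1 arrays of ROPGAP3 were close together, while those of PUP4 and of the next gene were spread.

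CYP714A1, of a P450 family that inactivates gibberellin, had 265, 587 and 349 in KAN1, against a lowest of 5.43, a median of 35.6 and a highest of 107. It was present on 1 of the other 16 arrays, in AtML1, the next reporter at a ratio of 5.46. CYP78A7, a relative of the organ growth regulator KLU, averaged 355 ± 79.5 in KAN1 and was 4.93 times HDG4. CYP82G1, which makes a volatile homoterpene, averaged 215 ± 96.4, at least 2.55-fold higher than AtML1, and the calmodulin-like protein AT2G41090 averaged 531 ± 56.1, at least 2.61-fold higher than AtML1.

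The 15 cell wall and apoplast genes had ratios between 2.08 and 6.38, with a median of 3.74. Pairs of them share an enzyme class: 2 pectinesterases, which strip methyl groups from pectin, 2 polygalacturonases, which cut it, 2 expansins, which loosen the wall, and 2 germin-like proteins of the apoplast. Searched for in the table's descriptions after the values had been seen, KAN1 was the highest reporter in 3 of 14 other detected pectinesterases, 3 of 17 other polygalacturonases, 2 of 13 other expansins and 0 of 3 other germin-like proteins. By the same search it was the highest in 3 of 24 other aspartyl proteases and 0 of 8 other chitinases. The counts were 2 of 13 for other genes of the lipid transfer protein family and 0 of 2 for other CYP96A genes. Over all other genes of the table detected in a reporter KAN1 was the highest in 1547 of 14102.

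AT1G62500, a proline-rich protein of the lipid transfer protein family, had 2518, 2161 and 3246 in KAN1, against a lowest of 39.7, a median of 115 and a highest of 708, 4.66 times LAS. The polygalacturonase AT1G10640 had 1805, 1685 and 2192 in KAN1, against a lowest of 6.19, a median of 45.1 and a highest of 622, 3.74 times LAS. Its other arrays split into high values in HDG4 and LAS and low ones elsewhere. The pectinesterase PME5 had 2065, 1579 and 1821 in KAN1, against a lowest of 141, a median of 247 and a highest of 812, 2.62 times HDG4, and was present on every array.

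ELP, an extensin-like protein, had 310.5, 561 and 507 in KAN1, against a lowest of 4.31, a median of 28.0 and a highest of 105, at least 6.29-fold higher than AtML1. AT2G10940, of the lipid transfer protein family, had 762, 634 and 1043 in KAN1, against a lowest of 5.46, a median of 98.6 and a highest of 158, 5.67 times HDG4. GER1, a germin-like protein, had 934, 509 and 939 in KAN1, against a lowest of 28.5, a median of 82.5 and a highest of 287, 5.34 times HDG4. All 3 were clear of every other array, though the middle KAN1 array of GER1 was well below the other two.

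GER3, the second germin-like protein, stood out by its spread, with 946, 398 and 409 in KAN1, and was 4.81 times HDG4. The expansins EXP3 and EXPA20 averaged 1584 ± 198 and 435 ± 27.7 in KAN1, 2.66 times AtML1 and 2.15 times LAS. The other polygalacturonase, AT1G48100, averaged 491 ± 57.2, 4.62 times AtHB8, and the other pectinesterase, AT2G26440, averaged 471 ± 118, 4.46 times LAS. The cell wall invertase ATBFRUCT1, which splits sucrose outside the cell, averaged 859.9 ± 47.6, 2.08 times HMG. The glycosyltransferase GATL6, the fasciclin-like arabinogalactan protein FLA2 and the glycosyl hydrolase GH9B18 had ratios of 2.51, 2.17 and 2.09.

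The transcription and RNA group had a median ratio of 2.38. GRF5, a growth-regulating factor that promotes cell division in leaves, had 1058, 777 and 929 in KAN1, against a lowest of 63.2, a median of 260.2 and a highest of 514, 2.13 times HDG4. AT3G53310, a B3 domain protein, had 2091, 1254 and 1856 in KAN1, against a lowest of 3.45, a median of 188 and a highest of 583, 3.69 times HDG4. GRP2B, a cold shock domain RNA-binding protein, had 4013, 2639 and 3378 in KAN1, against a lowest of 196, a median of 963 and a highest of 2429, 2.08 times LAS. In these 3 genes array 2 was the lowest of the KAN1 arrays and still above every other array.

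A second B3 protein, AT3G06160, averaged 729.9 ± 51.5 in KAN1, 4.02 times AtML1, while KAN1 was the highest reporter in 1 of 10 other detected genes of the B3 family. BNQ2, a small helix-loop-helix protein of a family that blocks other bHLH factors, averaged 332 ± 118 and was absent on all other arrays, with a bound of at least 2.88-fold over AtML1. The bHLH protein AT1G22490 and AT1G31310, described as a hydroxyproline-rich protein, averaged 433 ± 95.0 and 317 ± 57.6, with ratios of 2.04 and 2.38.

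The 6 plastid and photorespiration genes had the lowest median ratio, 2.12, and no more than 2.43. AT2G37220, a chloroplast RNA-binding protein, had 2254, 2744 and 2558 in KAN1, against a lowest of 503, a median of 896 and a highest of 1910.5. G-TMT, which methylates tocopherol to vitamin E, had 707, 1137 and 547 in KAN1, against a lowest of 129, a median of 256 and a highest of 429.7. AT5G51110, of the pterin dehydratase family, had 603, 656 and 643 in KAN1, against a lowest of 188, a median of 273 and a highest of 344. Each was present on all 19 arrays.

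GGR, annotated as a geranylgeranyl reductase, averaged 575 ± 28.0 in KAN1, 2.43 times AtHB8, from a probe set whose name marks it as shared by several transcripts. AGT, the serine-glyoxylate aminotransferase of photorespiration, averaged 531 ± 129.8, 2.29 times S17. OEP6, a protein of the outer plastid envelope, had 346, 127 and 181 in KAN1 and a highest of 136 elsewhere, so that 1 KAN1 array lay within the range of the others.

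In the metabolism and transport group, AT1G44760, a universal stress protein, had 7326, 8258 and 7753 in KAN1, against a lowest of 787, a median of 1744 and a highest of 3494, 2.502 times AtHB8. PMT5, a proton-coupled polyol and monosaccharide transporter, had 1547, 1775 and 1637 in KAN1, against a lowest of 222, a median of 352 and a highest of 760.0, 2.88 times HMG. AT5G11930, a glutaredoxin, had 1133, 965 and 1426 in KAN1, against a lowest of 32.3, a median of 173 and a highest of 417, 3.35 times HDG4. No KAN1 array of these genes reached into the range of the others.

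THA1, a threonine aldolase, averaged 947 ± 128 in KAN1, 2.89 times S17. The carboxylesterase AT2G03550, the alcohol dehydrogenase AT1G22430, the inositol phosphate synthase MIPS3 and the permease AT5G19500 had ratios of 2.16, 2.43, 2.22 and 2.09. Of the genes of unknown function, AT2G20515 had 584, 370.0 and 688 in KAN1, against a lowest of 31.5, a median of 112 and a highest of 343. AT4G04630 had 486, 461 and 478 in KAN1, against a lowest of 42.2, a median of 116 and a highest of 276, and AT5G13140 had 396, 411 and 489, against a lowest of 4.33, a median of 37.8 and a highest of 114. Ratios of AT2G20515, AT4G04630 and AT5G13140 were 2.54, 2.21 and 4.45, and those of AT4G26130 and AT2G21180 were 2.42 and 2.04.

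**Figure D2:**
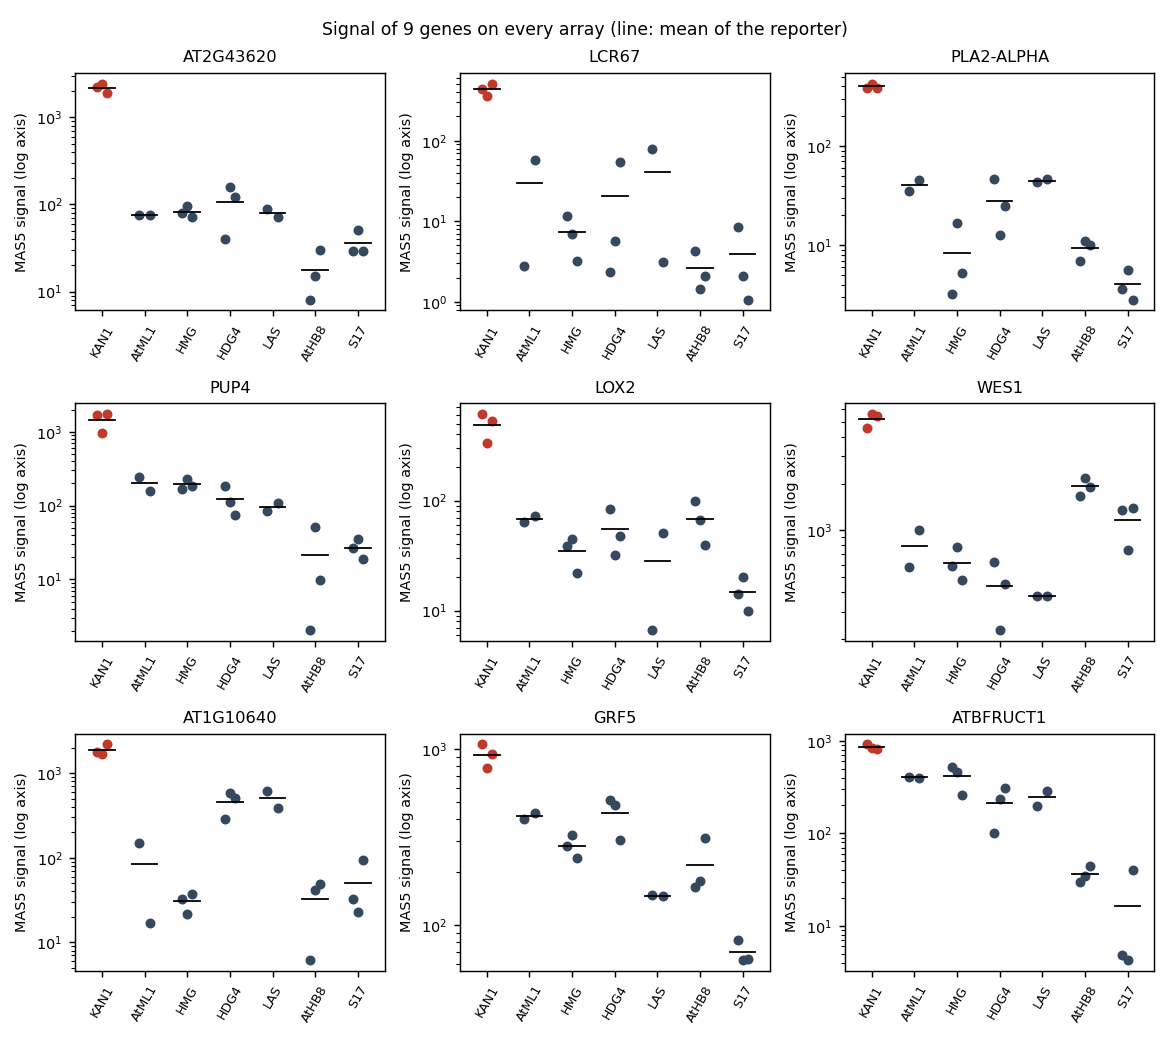
MAS5 signal (log axis) of 9 of the 63 genes on every array, by reporter, with points for arrays and lines for reporter means. The 9 genes were picked after their values were seen, to show different patterns outside KAN1: AT1G10640 is higher in HDG4 and LAS, WES1 in AtHB8 and S17, and ATBFRUCT1 is low in both vascular reporters.

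Outside KAN1 the genes differed in how widely they were detected. A total of 14 were called present on all arrays of all 6 other reporters and 18 on all arrays of none. Only 4 were called absent on all 16 other arrays (AT1G73620, LCR67, PLA2-ALPHA and BNQ2), and 38 were absent on all arrays of at least 1 reporter. Each other reporter had between 25 and 33 of the 63 genes present on all its arrays, against 95.1% to 96.7% of the 10230 genes present in KAN1 at an averaged signal of at least 200. The rule favours genes that are dim outside KAN1, so nothing is read from this gap. The next reporter was AtML1 for 17 genes, HDG4 for 15, LAS for 12, AtHB8 for 10, S17 for 5 and HMG for 4. Over the 10230 genes called present in KAN1 at an averaged signal of at least 200, the highest of the 6 was AtML1 for 17.3%, HDG4 for 20.1%, LAS for 16.6%, AtHB8 for 17.5%, S17 for 16.3% and HMG for 12.2%.

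Differences among the 6 other reporters do not use the KAN1 signals, apart from the shared estimate of spread, and were tested with limma over all 15161 probe sets that passed a filter on low signals. The rule did use the highest of these 6 averages, since KAN1 had to be at least 2 times it. A gene bright in any of the 6 next to KAN1 could not enter, so these comparisons are not free of the choice. All 63 genes passed the filter, 14 of them through KAN1 alone. At an adjusted p under 0.05 in limma's moderated F test, 45 of the 63 differed among the 6, or 71.4%, against 72.8% of all probe sets tested, so this share is near the background. Of the 49 genes that passed the filter in another reporter, 39 differed. AT5G56220, GRF5 and CYP96A12 had the smallest adjusted p-values, at 1.13e-06, 2.66e-06 and 5.23e-06.

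The vascular reporters (AtHB8 and S17) were compared with the non-vascular ones (AtML1, HMG, HDG4 and LAS). Calls required a 2-fold difference and an adjusted p below 0.05. On this basis 17 of the 63 genes (27.0%) were lower in the vascular reporters, against 14.2% of all probe sets tested, and 3 (4.8%) were higher, against 16.5% (30.7% in either direction). The rule barred genes bright in a vascular reporter next to KAN1, and its part in these shares was not tested. The median difference in log2(signal + 1) over the 63 genes was -0.32, and -0.12 over all probe sets tested. Of the 17 lower genes, GPAT2, CYP78A7 and PLA2-ALPHA had passed the filter through KAN1 alone, which left 14 lower and 3 higher among the 49 others.

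ATBFRUCT1 had a lowest signal of 4.28, a median of 32.3 and a highest of 44.1 on the vascular arrays, against 100.1, 300.2 and 525 on the non-vascular ones. The 2 sides did not overlap, and the difference was at least 9.42-fold (log2 -3.88 ± 0.38 SE, adjusted p = 3.08e-07). AT3G53310 had 3.45, 42.2 and 57.5 on the vascular arrays, against 112, 225 and 583, and PUP4 had 2.07, 22.9 and 52.0, against 74.8, 163 and 246. Both were absent on all vascular arrays and without overlap, at least 6.79-fold lower (adjusted p = 5.18e-07) and at least 5.23-fold lower (2.19e-05).

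The polygalacturonase AT1G10640 was 4.22-fold lower in the vascular reporters (log2 -2.08 ± 0.49, adjusted p = 0.00143), with medians of 37.1 and 219.8 and sides that overlapped. This difference lay mainly in HDG4 and LAS, which averaged 459.9 and 505.8. AtML1 and HMG averaged 83.9 and 30.7, against 32.2 in AtHB8 and 50.1 in S17. GPAT2 averaged 18.16 in the vascular reporters and 40.6 in the non-vascular ones, with overlap (log2 -1.93 ± 0.57, adjusted p = 0.00695). It was tested only because it passed the filter in KAN1, and no vascular array called it present, so no fold is given. With a pseudocount of 16 in place of 1 its difference was -0.89, under 2-fold. THA1 was the gene with the largest difference among those higher in the vascular reporters, with a lowest of 109, a median of 236 and a highest of 401, against 27.1, 60.8 and 179.6. The 2 sides overlapped, and the vascular mean was 3.85-fold higher (log2 1.95 ± 0.30, adjusted p = 3.19e-05). WES1 and AGT were also higher, 2.84-fold and 3.23-fold.

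The remaining genes lower in the vascular reporters were AT2G43620, PLA2-ALPHA, CYP78A7, AT1G62500, AT1G09750, AT5G11930, AT2G20515, AT1G22430, AT5G56220, AT4G04630, GRF5 and GRP2B. PLA2-ALPHA was absent on both sides, so no fold is given.

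**Figure D3:**
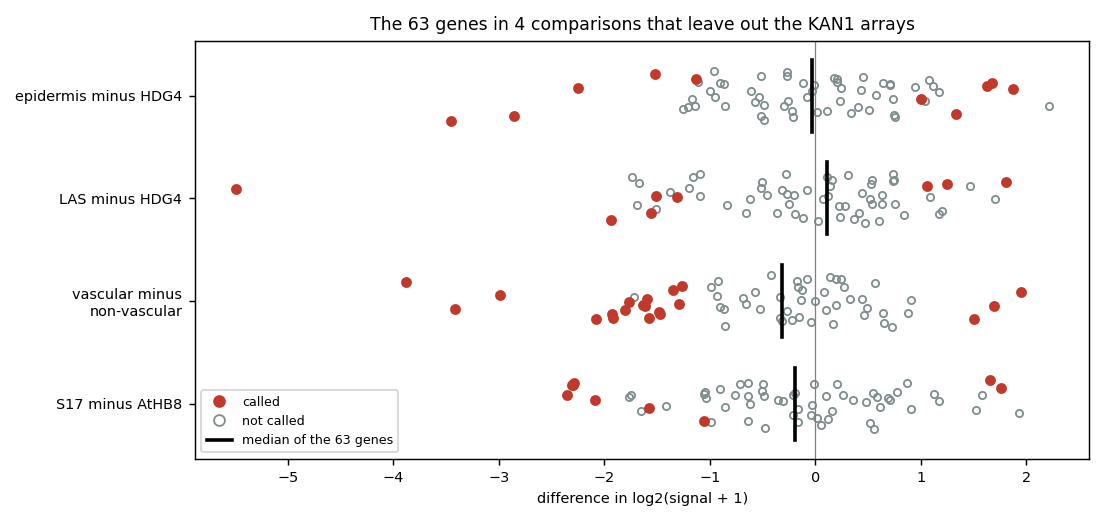
Differences in log2(signal + 1) of the 63 genes in the 4 comparisons that leave out the KAN1 arrays, with filled points for genes called (adjusted p under 0.05 and at least 2-fold), open points for the others and a bar at the median. The vascular comparison has the most filled points, 17 of 20 of them on the lower side. It also had the most calls over all probe sets tested, 30.7% (14.2% lower and 16.5% higher).

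Epidermal reporters (AtML1 and HMG) were compared with the subepidermal HDG4, to ask whether the signal that remains outside KAN1 lies in the epidermis or beneath it. Of the 63 genes, 5 (7.9%) were higher in the epidermal reporters, against 5.69% of all probe sets tested, and 5 (7.9%) were lower, against 3.94% (9.63% in either direction). The medians were -0.03 over the 63 genes and -0.07 over all probe sets tested. Lower were AT1G10640, MIPS3, AT5G13140, PME5 and ABCG5, and higher were AT4G02410, CYP96A12, AT1G22430, AT2G03550 and AT5G56220.

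AT1G10640 had signals of 151 and 16.9 in AtML1 and 32.9, 21.8 and 37.4 in HMG, against 289, 583 and 508 in HDG4. The sides did not overlap, and the epidermal mean was 10.99-fold lower (log2 -3.46 ± 0.69, adjusted p = 0.00237). MIPS3 had 16.2 and 21.2 in AtML1 and 37.7, 46.9 and 3.24 in HMG, against 188, 154 and 99.1 in HDG4. It was absent on all epidermal arrays and at least 5.23-fold lower (adjusted p = 0.00281).

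AT5G13140 was also absent on the epidermal arrays and at least 3.11-fold lower (adjusted p = 0.00245), though no HDG4 array called it present either. CYP96A12 had 509 and 570.1 in AtML1 and 443, 209 and 288 in HMG, against 89.8, 136 and 159 in HDG4. Without overlap, it was 3.20-fold higher in the epidermal reporters (log2 1.68 ± 0.24, adjusted p = 0.000161). For AT4G02410 and AT1G22430 no HDG4 array gave a present call, so their dim side was not detected. The calls of AT4G02410 (at least 3.04-fold higher, adjusted p = 0.0438) and AT1G22430 (3.10-fold higher, adjusted p = 0.0325) rest on little. They were lost when any 1 of 13 and of 4 arrays was left out, and without HDG4 replicate 3 the log2 differences were 1.13 (adjusted p = 0.247) and 0.81 (0.193).

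Adaxial LAS cells were compared with HDG4. Of the 63 genes, 3 (4.8%) were higher in LAS, against 2.46% of all probe sets tested, and 5 (7.9%) were lower, against 2.29% (4.75% in either direction). Of the 49 genes that passed the filter in another reporter, 3 were higher and 4 lower. The medians were 0.11 over the 63 genes and 0.01 over all probe sets tested. The lectin AT1G33790 had signals of 79.7 and 3.004 in LAS, against 785, 592 and 1144 in HDG4. The groups did not overlap, with arithmetic means of 41.4 in LAS and 840.2 in HDG4, and on geometric means LAS was 45.1-fold lower (log2 -5.50 ± 0.83, adjusted p = 0.000809), a size that depended on the second LAS array, since the difference was -3.33 without LAS replicate 2 (adjusted p = 0.0032).

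GRF5 had 147 and 146 in LAS, against 514, 478 and 303 in HDG4, and was 2.86-fold lower without overlap (log2 -1.51 ± 0.28, adjusted p = 0.00363). EXP3 was 2.48-fold lower (log2 -1.31 ± 0.28, adjusted p = 0.00961), a call lost without LAS replicate 1 (-0.87, adjusted p = 0.192). GER3 was at least 3.61-fold lower (adjusted p = 0.0278) and AT1G22490 was 3.50-fold higher (adjusted p = 0.0331), calls that 3 and 4 single arrays ended, with adjusted p reaching 0.261 without LAS replicate 1 and 0.181 without LAS replicate 2. GER3 was tested only because it passed the filter in KAN1. AT4G26130 was 2.95-fold lower (adjusted p = 0.0453), a call that ended when any 1 of 17 arrays was left out, with log2 differences of -0.67 without LAS replicate 1 and -2.44 without LAS replicate 2. Neither EXP3 nor AT4G26130 was called present on a LAS array, so the dim side of their folds was not detected. AT1G44760 (2.38-fold) and AT5G56220 (2.08-fold) were the other 2 genes higher in LAS.

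Between the vascular reporters, S17 was compared with AtHB8. Of the 63 genes, 2 (3.2%) were higher in S17, against 4.35% of all probe sets tested, and 7 (11.1%) were lower, against 4.2% (8.55% in either direction). Of the 49 genes that passed the filter in another reporter, 2 were higher and 5 lower. The medians were -0.19 over the 63 genes and -0.05 over all probe sets tested. OEP6 had signals of 16.7, 11.8 and 37.3 in S17, against 126, 98.1 and 91.6 in AtHB8, and was at least 4.05-fold lower without overlap (adjusted p = 0.0028).

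AT2G03550 had 156, 70.1 and 73.0 in S17, against 408, 443 and 526 in AtHB8, and was 4.87-fold lower without overlap (log2 -2.29 ± 0.27, adjusted p = 5.19e-05). CYP96A12 had 229, 201 and 255 in S17, against 73.0, 67.1 and 60.01 in AtHB8, and was 3.38-fold higher without overlap (log2 1.76 ± 0.27, adjusted p = 0.000398). LOX2 was at least 2.96-fold lower in S17 (adjusted p = 0.0207), a call that 4 single arrays ended, with adjusted p up to 0.0861 without AtHB8 replicate 1. AT1G48100 was at least 2.93-fold lower (adjusted p = 0.0384), a call that 4 single arrays ended (0.163 without S17 replicate 1). LOX2 and AT1G48100 were tested only because they passed the filter in KAN1.

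AT3G53310 was called absent on all 6 arrays of S17 and AtHB8, so its call there (adjusted p = 0.0107) has no fold, and it ended without S17 replicate 1 (0.0512) or S17 replicate 2 (0.05). GRF5 and AT1G31310 were the other 2 genes lower in S17, and AT5G11930 was the other gene higher.

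Genes of 18 lists (organ sides, cell types, photosynthesis and handling of the cells) that are not among the 63 were then compared between KAN1 and the mean of the other 6 reporters. Of 154 tested, 49 were higher in KAN1 and 16 lower, against 5.05% and 2.49% of all probe sets tested (7.55% in either direction). Lists chosen with earlier results known are no independent evidence of direction. Of the 49, KAN1 was the highest of the 7 reporters in 17.

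Photosynthesis genes were higher in KAN1 than the mean of the others while S17 was often higher still. Of the light reaction genes 14 of 24 were higher, with a median log2 difference of 1.03, of the Calvin cycle genes 9 of 15, with 1.35, and of the photorespiration genes 4 of 8, with 1.06, against 0.03 over all probe sets tested. S17 was the highest reporter in 9, 3 and 4 of those called, and KAN1 in 5, 6 and 0. Some calls ended when 1 array was left out: LHCB5 (log2 1.00) for any of 11 arrays, LHCA4 (1.02) for 5 and GDCH (1.26) for 4. Those of CP12-2 and PSBX ended for 2 arrays, and those of PSBY and PSAO for 1. LHCB3, a light-harvesting protein, had signals of 4189, 2995 and 3865 in KAN1 and averaged 3877 in S17 (log2 1.58 ± 0.25 against the mean of the others, adjusted p = 0.000487). FBA2, an aldolase of the Calvin cycle, averaged 3075 ± 79.7 in KAN1 and 1730.2 in S17. Its log2 difference was 2.83 ± 0.20 against the mean of the others (adjusted p = 4.13e-07). HPR, of photorespiration, averaged 1823 ± 659.5 in KAN1 and 2667 in S17.

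Among the organ side genes, 4 of 5 adaxial genes were lower in KAN1 and none higher, and of 7 abaxial genes 1 was higher and 1 lower. YAB1, a YABBY factor of the abaxial side, averaged 719.9 ± 63.6 in KAN1, below its means of 1083 in HDG4, 944 in AtML1 and 826 in HMG (log2 1.42 ± 0.26 against the mean of the others, adjusted p = 0.00131). KAN2, ARF3, ARF4, YAB3 and YAB5 were not called, at log2 differences of 0.35, 0.29, -0.85, -0.34 and 1.41. ARF4 passed the threshold on p (0.00151) but not the 2-fold minimum. KAN3 was absent in KAN1 and at least 1.17-fold lower (adjusted p = 0.0179), a call lost without KAN1 replicate 2 or 3 (adjusted p = 0.123 and 0.13). The summed signal of the abaxial list lay between 6773 and 6979 in KAN1 and between 4472 and 10852 on the other arrays. AS2, of the adaxial side, was at least 3.50-fold lower in KAN1 (adjusted p = 0.00109).

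The margin and lamina list has GRF5 among the 63. Its co-activator AN3 averaged 1861 ± 222 in KAN1 and 979 over the other reporters (log2 1.27 ± 0.14, adjusted p = 2.52e-05). KLU, the relative of CYP78A7, was 2.05-fold higher (adjusted p = 0.00715) but brighter in HDG4, at 8375, than in KAN1, at 4940 ± 354, and its difference fell under 2-fold without KAN1 replicate 3 (0.99) or S17 replicate 1 (0.95). Of the meristem genes 2 of 11 were higher and 1 lower. The lower one was STM, a homeobox factor that maintains the meristem, at 1183 ± 51.3 in KAN1 and 4350.0 over the others (log2 -1.84 ± 0.11, adjusted p = 1.48e-07). Of the higher ones, KNAT1 was brightest in S17, and CLV1, a receptor kinase of the stem cell niche, averaged 3500 ± 225 in KAN1 and 1137 over the others (log2 1.78 ± 0.15, adjusted p = 2.41e-06).

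Markers of other cell types moved with KAN1 as follows. Epidermal genes were higher in 7 of 10, with a median log2 difference of 2.47 and a summed signal between 50363 and 56392 in KAN1, against 884 to 75210 on the other arrays. Of these 7, KAN1 was the highest reporter in ANL2 alone, and the other 6 were brightest in AtML1 or HMG. FDH, an enzyme of cuticular lipids, averaged 3864 ± 306 in KAN1 and 7788 in AtML1, and the factor ATML1 averaged 5223 ± 228 in KAN1 and 8595 in HMG. ANL2, an epidermal homeodomain factor, averaged 1532 ± 316 in KAN1 and 1454 in HMG. Against the mean of the other 6 reporters its log2 difference was 2.56 ± 0.53 (adjusted p = 0.00332). Flavonoid synthesis genes were higher in 7 of 10, with a summed signal between 23965 and 29355 in KAN1, against 2093 to 43791. KAN1 was the highest reporter in F3H alone of these 7. FLS1, a flavonol synthase, averaged 4556 ± 902 in KAN1 and 7260 in AtML1, and TT4, the chalcone synthase, averaged 9460 ± 2187 in KAN1 and 12133 in AtML1. F3H averaged 5186 ± 160.4 in KAN1 and 4694 in AtML1. Its log2 difference was 2.80 ± 0.29 against the mean of the other 6 reporters (adjusted p = 1.28e-05). The part of epidermal cells in the signals of the 63 genes was not tested.

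The xylem list summed to between 221 and 391 in KAN1, against 136 to 17546 on the other arrays, with 6 of 9 genes present on no KAN1 array, and 3 of 9 were lower (VND6, IRX5 and IRX1). The calls of VND6 and IRX5 were lost without KAN1 replicate 3 (adjusted p = 0.0607 and 0.0902). The phloem list summed to between 1365 and 2272 in KAN1, against 325 to 48958. SUC2, the sucrose carrier of the phloem, was the only 1 of 10 called. On log2 signals SUC2 was higher in KAN1 than the mean of the others (1.48 ± 0.25, adjusted p = 0.000706). Its brightest reporter was S17, at 1164, against 233 ± 64.3 in KAN1. The stomatal and guard cell list summed to between 3584 and 3734 in KAN1, above the range of 1935 to 3415 on the other arrays. Most of this sum came from SCRM, at 2391 ± 152 in KAN1 and 2458 in LAS, and OST1, at 882 ± 136 in KAN1 and 1229 in S17, both present on all 19 arrays. The defining factors SPCH and MUTE were called present on no array, and FAMA on 1 of the 3 KAN1 arrays. Of its 14 genes, 9 were present on no KAN1 array, and none of the 4 tested was called. The part of stomatal lineage cells in the signals of the 63 genes was not tested. Trichome genes were lower in 3 of 7 and higher in none, and the defining factor GL2 was absent on the KAN1 arrays. Its call as lower (adjusted p = 0.0209) was lost without KAN1 replicate 1 or 2 (0.113 in each). The call of SIM (adjusted p = 0.0211) was lost without KAN1 replicate 2 (0.093) or 3 (0.113).

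Among the carbonic anhydrases, 1 of 5 was higher and 1 lower, CA2 and CA4. CA2 averaged 286 ± 75.7 in KAN1 and 232 in S17 (adjusted p = 0.00424), and CA4 averaged 216 ± 65.5 in KAN1 and 2560 in S17 (adjusted p = 0.000159). Of the clock genes 1 of 8 was higher, LHY, whose difference fell under 2-fold without KAN1 replicate 1 (log2 0.99). The 1 tested myrosin cell gene was not called. Of 18 genes of wounding, touch and heat, set as marks of protoplasting, 3 were lower and none higher. LOX2 is on this list too, but was left out of the 18 because the rule had chosen it for its high KAN1 signal. Its KAN1 average was 7.17 times that of AtML1, the next reporter. The list summed to between 103203 and 119933 in KAN1, against 82633 to 215201 on the other arrays, and all 3 calls could be ended by leaving out 1 KAN1 array. JAZ5 was at -0.92 without replicate 1, HSP101 at -0.65 without replicate 2, and HSP17.6A at -0.61 without replicate 3 and not called without replicate 2 (adjusted p = 0.0793).

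**Figure D4:**
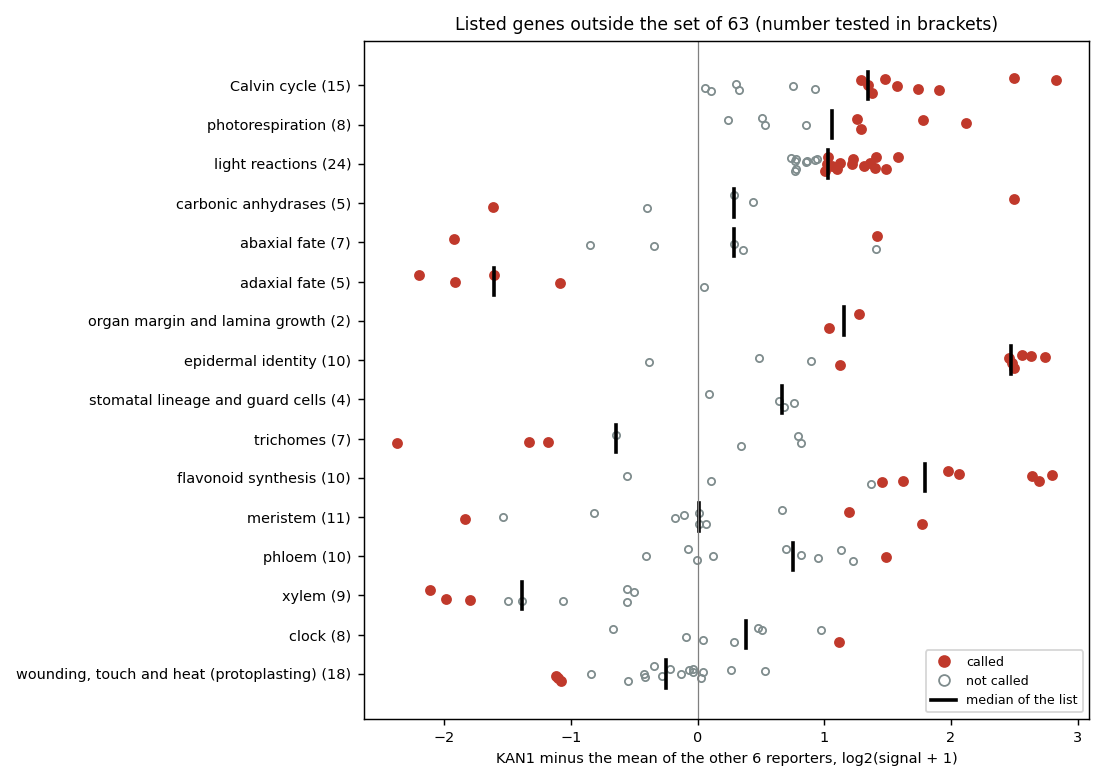
KAN1 minus the mean of the other 6 reporters, in log2(signal + 1), for listed genes outside the set of 63, with filled points for called genes, open points for the others and a bar at each list's median. Photosynthesis, epidermal and flavonoid genes lie to the right and adaxial and xylem genes to the left.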

How the data were processed

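The deposited intensity values are MAS5 signals of single-colour ATH1 arrays on a linear scale. The submitters' processing notes name MAS5, without a version. Each array's mean was 500 once the top and bottom 2% were trimmed, so the authors had scaled all arrays alike. The authors' averaged intensity values, deposited with detection calls, matched the array means to within 0.005. No 2 arrays held identical values. Groups came from the sample labels. Scan dates were not used, so no batch could be examined.

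The 64 control probe sets of 22810 were left out. Testing was limited to probe sets at or above the 40th percentile of the array on every array of 1 or more reporters. The log2 values, with a pseudocount of 1, were fitted in limma 3.58.1 (R 4.3.3) with 1 mean per reporter over all 19 arrays, two-sided, and Benjamini-Hochberg adjustment over all 15161 probe sets (residual degrees of freedom 12, prior 3.06). Ratios printed as folds are ratios of geometric means on that scale. The pseudocount shrinks differences of dim genes, and where arrays of a group spread, such a fold can be well above the ratio of arithmetic means. The fit was tested on simulated data. The number of arrays limits the precision.

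The 63 genes, the lists, the groups by role and the tests were chosen with earlier results of these data known, and 13 list symbols were set by locus after matching by symbol failed. Signals on every array are given for the 12 genes with the highest ratio and the 3 with the highest KAN1 level in each group by role, and called genes are named for the largest 6 in each comparison without KAN1 and up to the largest 3 in each list, beside all tested abaxial genes; other genes are named with their level or ratio. Other settings tried were a pseudocount of 16, no filter or a filter at the 60th percentile, quantile normalisation, array weights, a replicate block, no fold minimum and leaving out arrays. RefSeq gene names (TAIR10.1) matched all 63 genes. Certain items are not reported here.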

Additional observations from a re-analysis of the deposited data

How the results depend on the processing

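The counts below pool both directions, so they cannot show a reversal. Of 2425 values of named genes under other settings none reversed direction. Their call was kept in 2297, lost in 127 and gained in 1. The rule gave 158 genes at a ratio of 1.5 and 26 at a ratio of 3, and between 61 and 69 when 1 array was left out. Leaving out 1 array gave 40 to 46 genes that differed among the 6 other reporters (45 with all arrays), 7 to 14 for epidermis against HDG4 (10), 4 to 9 for LAS against HDG4 (8), 20 to 22 for vascular against non-vascular (20), 7 to 12 for S17 against AtHB8 (9) and 54 to 69 list genes (65). The 4 in LAS came without LAS replicate 1. Array weights called 19 genes in the epidermal comparison and 5 in LAS against HDG4, where no filter and leaving out the 3 arrays of highest actin ratio also gave 5. Over all probe sets LAS against HDG4 called 436 to 806 with 1 array left out (720), lowest without LAS replicate 2 and at 451 without LAS replicate 1. Without a fold minimum the calls over all probe sets rose to 3087 for epidermis against HDG4 (1460), 10417 for the vascular comparison (4657) and 2358 for S17 against AtHB8 (1297). The actin difference ran between -6.59 and -5.77 without 1 KAN1 array.

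Same-numbered arrays had a median correlation of deviations of 0.004 over 46 pairs, 3 of them over 0.1. For arrays of different number it was 0.001 over 108 pairs, 13 of them over 0.1. With groups of 2 or 3 arrays this cannot exclude that some same-numbered arrays belong together, and the numbers were not used to pair arrays in the main fit. With the replicate number as a block the counts were 46, 13, 7, 20 and 11 genes in the 5 comparisons in the order above, and 69 list genes. Over all probe sets the block raised the counts for epidermis against HDG4, the vascular comparison and S17 against AtHB8. It lowered those for differences among the 6 other reporters and for LAS against HDG4. With 2 or 3 arrays in a group, and genes near background in several reporters, small differences could not be resolved.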
